A study of Sus scrofa with 6 samples.

Results

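Autophagy is the route by which a cell wraps part of its own content in a double membrane and delivers it to the lysosome, and mitophagy is the same route applied to mitochondria. A list of 44 genes of this machinery was followed in loin muscle (longissimus dorsi) of Wei and Yorkshire pigs. A gene was included where its symbol stood in the deposited table. Of the 44 symbols, 41 matched a row, out of 25322 rows, and each matched a single row. PIK3R4, ATG4B and PARK2 matched none by symbol. ATG10, at 4 to 15 counts per library, did not reach the count filter, so 40 genes were tested.

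RNA was sequenced from 3 libraries labelled Wei (titles starting with YH) and 3 labelled Yorkshire (titles starting with LWH), a European pig breed. The Wei pigs ate commercial feed freely and were slaughtered at 90 kg. The Yorkshire pigs are described as kept in a similar way, with no weight of their own. Sex and age are not in the labels, nor is it said that the 3 libraries of a breed are 3 animals. The p-values therefore reflect only how much these libraries vary, which may be technical.

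Total counts ran from 15285197 to 27096747 per library. The muscle fibre markers (5 of 7 with a row) were high in all libraries and summed to between 81818 and 155556 CPM (counts scaled to library size, after scaling by the trimmed mean of M values, TMM). The sums of the fibroblast, adipocyte and lymphocyte lists did not overlap between breeds. The fibroblast and adipocyte sums were each led by a single gene. The fibroblast list summed to 465 to 1304 CPM in Wei and 1717 to 2863 in Yorkshire (5 of 6 genes with a row). Its largest part was COL3A1 (mean 596 in Wei, 1964 in Yorkshire). DPT was also lower in all Wei libraries, while DCN, LUM and PDGFRA overlapped. The adipocyte list summed to 423 to 462 in Wei and 260.0 to 314 in Yorkshire (4 of 4, with LEP at 0 in at least 1 library). Nearly all of it was PLIN4 (mean 439 in Wei, 271 in Yorkshire). PLIN1 (5.45 and 5.71) and CIDEC (2.04 and 2.90) overlapped between breeds. Lymphocyte markers summed to 2.25 to 2.86 CPM in Wei and 3.71 to 20.1 in Yorkshire, and macrophage markers to 22.2 to 32.9 and 19.2 to 92.7. Yorkshire replicate 3 held the highest value of both immune lists. The smooth muscle and pericyte sums overlapped between breeds. In that list CSPG4 and RGS5 were lower in all Wei libraries, while MYH11, ACTA2 and TAGLN overlapped. Counts on the Y chromosome came to 6901 for Wei replicate 2, while no other library passed 14. The part of these differences in the results below was not tested, and in whole muscle fewer cells of a type and less RNA per cell cannot be told apart.

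The pathway runs in steps. The ULK kinase complex starts it, and a lipid kinase complex around BECN1 and PIK3C3 then marks a membrane with the lipid PI3P. WIPI, ATG2 and ATG9 proteins bring in lipid. A set of conjugating enzymes and the ATG4 proteases attach small ubiquitin-like proteins of the ATG8 family (the LC3 and GABARAP proteins) to the growing membrane. Receptors such as SQSTM1 tie cargo to them, and the lysosome digests the result. In skeletal muscle this route clears damaged mitochondria and protein aggregates and supplies amino acids during fasting.

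Genes of several of these steps were higher in Wei muscle, and none was called lower. SQSTM1, ULK1, TP53INP2, WIPI1 and ATG4A passed edgeR's quasi-likelihood test, with p-values adjusted by Benjamini-Hochberg over all 13209 genes tested and a threshold of 0.05. Their fold changes ran from 1.56-fold for ATG4A to 2.85-fold for SQSTM1. The call rate over all genes was 5.08%, with 2.73% higher and 2.35% lower in Wei, against 5 of 40 higher and 0 of 40 lower here. The genes and lists were chosen with earlier results of these data known. Comparisons with all genes, here and below, are therefore descriptions only. Taking an adjusted p under 0.10 instead, 9 were higher and 1, OPTN, was lower, where 5.63% and 5.49% of all genes were so (11.1% either way). Without adjustment, 14 genes were higher and 1 lower at a p under 0.05, against 11.4% and 11.8% of all genes (23.3% either way). DESeq2 called 10 higher and 1 lower of the 40, where it called 5.4% and 4.38% of all genes (9.78% either way).

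Most of the remaining genes leaned the same way by small amounts. The fitted log2 fold change was above 0 for 32 of 40 genes, against 47.8% of all genes. The median was 0.22, with quartiles of 0.063 and 0.47, and the median over all genes was -0.023. All 3 Wei libraries lay above all 3 Yorkshire libraries for 14 of the 40, where 14.3% of all genes did so. They lay below for 1, where 15.3% did so (29.6% either way). These genes are well expressed: their median average log2 CPM was 5.38 against 3.11 over all genes, and their median standard error (SE) of the log2 fold change was 0.14 against 0.22. Fewer genes were called with any library left out, among these genes and over all genes. With Yorkshire replicate 1 left out 2 genes were called higher (1.13% of all genes), with Yorkshire replicate 2 left out 0 (0.27%), and with Yorkshire replicate 3 left out 3 (0.713%). Leaving out Wei replicate 1, 2 or 3 gave 2 (0.996%), 4 (1.89%) and 4 (1.02%). The log2 fold change of SQSTM1 lay between 1.28 and 1.65 over these 6 fits and that of ULK1 between 1.06 and 1.40.

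**Figure D1:**
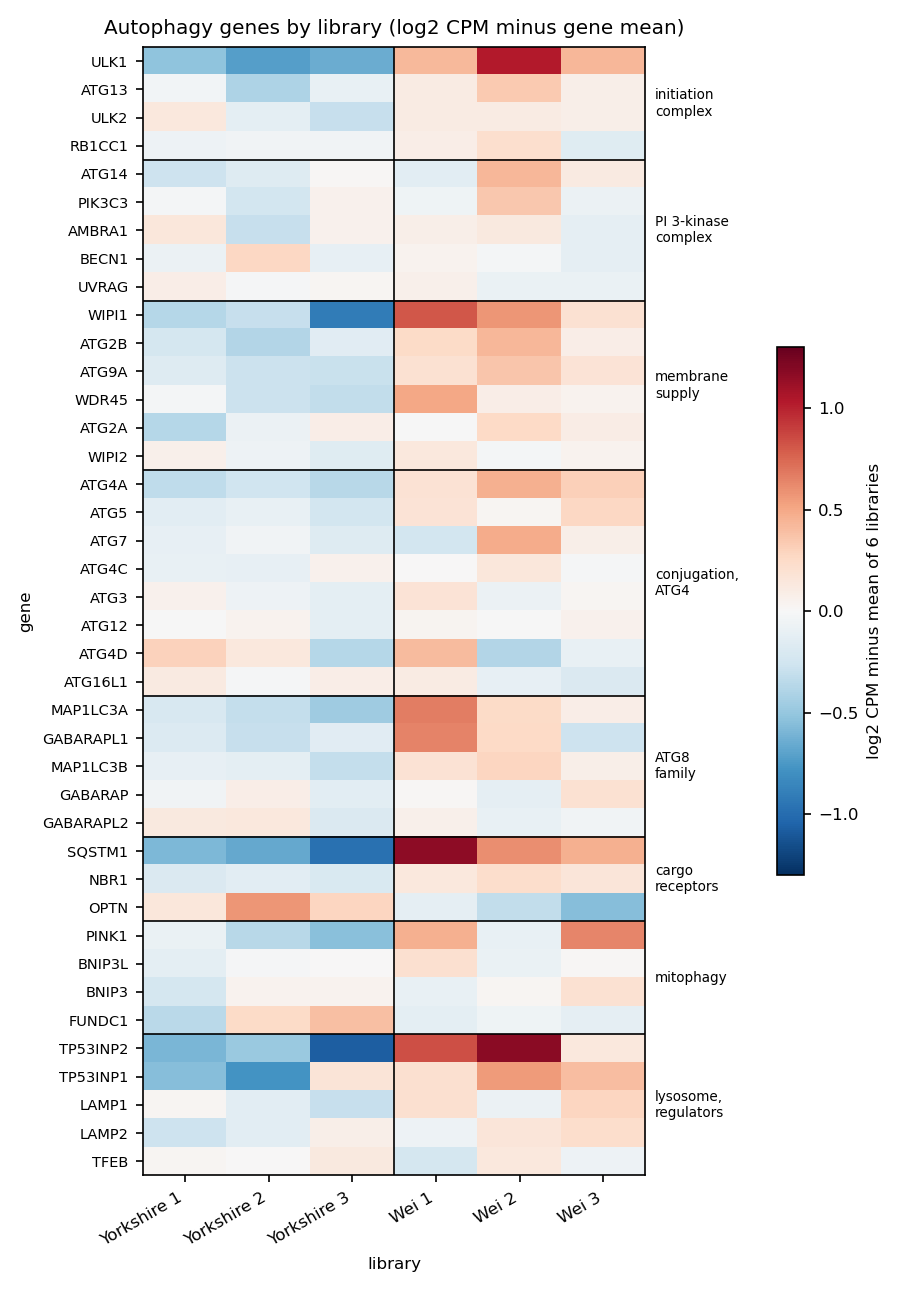
Heat map of the 40 tested genes in rows, grouped by role, and the 6 libraries in columns; colour is log2 CPM minus the gene's mean over the 6 libraries. SQSTM1, ULK1, WIPI1 and TP53INP2 are below their mean (blue) in every Yorkshire library and above it (red) in every Wei library, with TP53INP2 pale in Wei replicate 3, and OPTN is the reverse.

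In the starting complex 1 of 4 genes, ULK1, was called with edgeR, where 5.08% of all genes were called. Each step holds few tested genes, so 0 or 1 call does not set a step apart from the others. Whether it differs from its paralog ULK2 in response was not tested. ULK1, a kinase switched on by the energy sensor AMPK and held back by mTORC1 (ENSSSCG00000009742, chromosome 14, 24875186 to 24913201 in Sscrofa10.2), stood at 175, 268 and 178 CPM in Wei replicates 1 to 3. Yorkshire replicates 1 to 3 had 91.1, 79.8 and 84.2, so every Wei value was above every Yorkshire value and Wei replicate 2 was the highest. The log2 fold change was 1.28 ± 0.18 (SE; edgeR's quasi-likelihood test, adjusted p = 0.0125). A neighbouring gene model that overlaps ULK1 had 2.76% as many counts. ULK2, its paralog, had 70.6, 70.7 and 69.3 CPM in Wei and 72.3, 60.2 and 53.4 in Yorkshire, which overlap, and a log2 fold change of 0.18 ± 0.14.

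ATG13, the adaptor that joins ULK1 to the rest of the complex, stood at 25.7, 30.2 and 25.1 CPM in Wei and 23.3, 18.0 and 22.3 in Yorkshire. Its groups did not overlap, but the difference of 0.35 ± 0.15 on the log2 scale missed the threshold (edgeR adjusted p = 0.208). RB1CC1, the scaffold of the complex, had a log2 fold change of 0.11 ± 0.13. ULK1 passed with each library left out except Yorkshire replicate 2, where edgeR gave it an adjusted p of 0.0716.

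**Figure D2:**
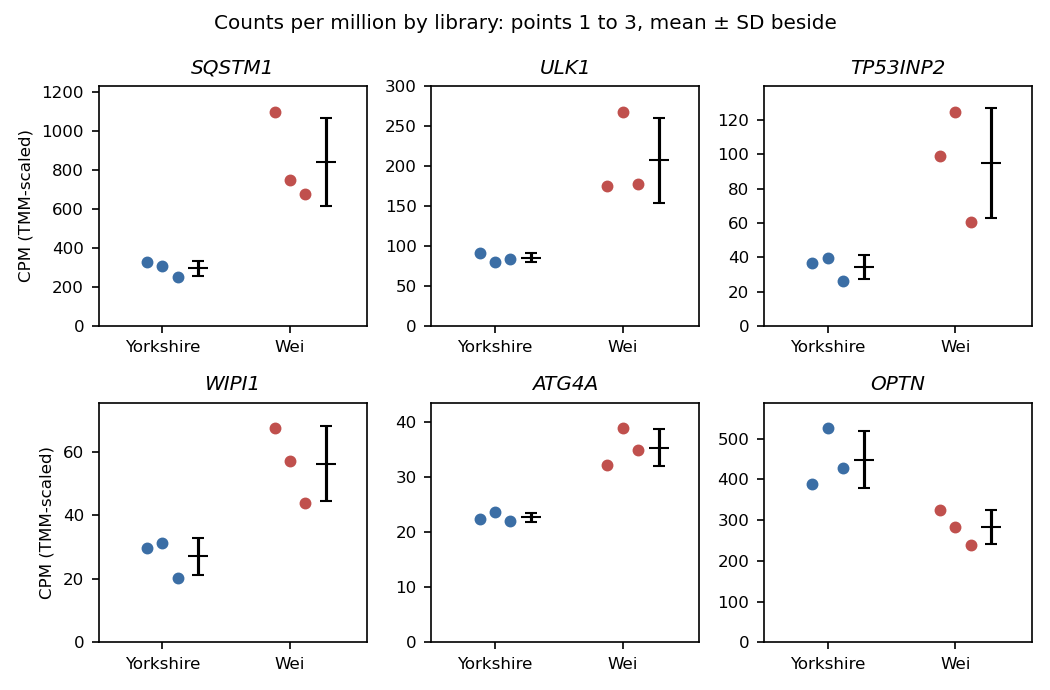
CPM of SQSTM1, ULK1, TP53INP2, WIPI1, ATG4A and OPTN in each library; points are replicates 1 to 3 from left to right, and the bar beside them is the mean ± SD (n = 3 per breed). The first 5 are higher in all Wei libraries, while OPTN runs from 240 to 325 CPM in Wei and from 389.7 to 525 in Yorkshire.

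No gene of the lipid kinase complex was called with edgeR, DESeq2 or limma voom, which called 5.08%, 9.78% and 4.88% of all genes. Of its 5 tested genes, 0 had an unadjusted p under 0.05 with edgeR, against 23.3% of all genes. In so small a group, 0 calls does not set the complex apart. The log2 fold changes of the 5 lay between -0.068 and 0.28. PIK3C3, the kinase itself, stood at 14.2, 18.9 and 14.0 CPM in Wei and 14.5, 12.6 and 15.4 in Yorkshire. BECN1, its regulatory partner, stood at 48.6, 46.3 and 43.4 CPM in Wei and 44.6, 56.8 and 43.5 in Yorkshire. Values of both breeds overlapped for each gene. ATG14, which directs the kinase to autophagosomes, had the largest difference of the group at 0.28 ± 0.19 on the log2 scale. UVRAG, which takes its place in an endosomal form of the complex, had -0.068 ± 0.14, and AMBRA1, a BECN1 regulator, had 0.051 ± 0.16. With a median SE of 0.16 in this group, differences of this size were not detectable.

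Genes of lipid supply and PI3P binding all had a positive log2 fold change, 6 of 6, where 47.8% of all genes did. Their median was 0.46, and ATG2A and WIPI2 overlapped between breeds. Of these genes 1 was called with edgeR, 2 with limma voom and 3 with DESeq2, which called 5.08%, 4.88% and 9.78% of all genes. WIPI1, a PI3P-binding protein of the early autophagosome (ENSSSCG00000017260, chromosome 12, 12181684 to 12218356), stood at 67.4, 57.2 and 43.9 CPM in Wei and 29.7, 31.2 and 20.4 in Yorkshire. The lowest Wei value was above the highest Yorkshire value. Its log2 fold change was 1.05 ± 0.21 (edgeR adjusted p = 0.0352). WIPI1 missed the threshold with each library left out except Wei replicate 3, with adjusted p of 0.042 to 0.0969 over the 6 such edgeR fits.

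ATG9A, the membrane protein of the vesicles that seed the autophagosome, had 153, 172 and 152 CPM in Wei and 119, 110.2 and 109.6 in Yorkshire. Both groups were tight and did not overlap. At 0.49 ± 0.12 on the log2 scale, its edgeR adjusted p of 0.0513 just missed the threshold. RLE scaling, a 1 CPM filter, limma voom and DESeq2 called ATG9A, as did leaving mitochondrial genes and ACTA1 out. Library size alone (edgeR adjusted p = 0.114), the replicate block (0.0902) and no count filter (0.0593) did not. With a library left out, 0 of 6 edgeR fits called it, at adjusted p of 0.0892 to 0.168. ATG2B, a lipid transfer protein, stood at 39.0, 44.2 and 34.9 CPM in Wei and 27.9, 25.1 and 29.5 in Yorkshire, again with no overlap. Its log2 fold change was 0.51 ± 0.14 with an adjusted p of 0.071 in edgeR and 0.031 in DESeq2.

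WDR45, a WIPI relative encoded on the X chromosome, stood at 35.4, 26.5 and 25.7 CPM in Wei and 24.7, 20.57 and 20.002 in Yorkshire. Wei replicate 1 was the high one, and the difference of 0.43 ± 0.17 (log2) had an edgeR adjusted p of 0.175. The paralogs ATG2A (0.23 ± 0.16) and WIPI2 (0.10 ± 0.12) had smaller log2 fold changes and overlapping groups.

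Among the enzymes that process and attach ATG8 proteins, 1 of 8 tested genes was called with edgeR, where 5.08% of all genes were called. ATG4A, a protease that trims ATG8 proteins, mainly those of the GABARAP branch (ENSSSCG00000012569, chromosome X, 102985759 to 103071239), stood at 32.2, 38.9 and 35.0 CPM in Wei. The Yorkshire values were 22.5, 23.6 and 22.1, close together and below all of Wei. The log2 fold change was 0.64 ± 0.13 (edgeR adjusted p = 0.0344). ATG4A missed the threshold with each library left out, at edgeR adjusted p of 0.0541 to 0.108. It also missed with library size alone (0.0643) and with the replicate block (0.0551). A gene model that overlaps it had 11.6% as many counts, with a log2 fold change of -0.25 ± 0.34. Over these 6 fits its log2 fold change lay between 0.57 and 0.71. The gene is X-linked, and the part of sex in its difference was not tested.

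The paralogs ATG4C (0.088 ± 0.16) and ATG4D (-0.036 ± 0.24) had log2 fold changes within 1 SE of 0. ATG4D ranged widely within each breed, from 31.4 to 54.4 CPM in Wei and from 31.8 to 50.4 in Yorkshire. It overlaps KRI1, which had 52.3% as many counts, and reads of the pair cannot be told apart without the strand. ATG5, joined to ATG12 in the enzyme that sets ATG8 proteins on the membrane, stood at 12.2, 11.0 and 13.0 CPM in Wei and 9.85, 10.1 and 9.14 in Yorkshire. Those groups did not overlap, and the log2 fold change of 0.31 ± 0.14 had an edgeR adjusted p of 0.234. ATG7, the activating enzyme (0.25 ± 0.19), ATG3, the conjugating enzyme (0.085 ± 0.13), ATG12 (0.054 ± 0.13) and ATG16L1, the membrane anchor of the complex (-0.12 ± 0.13), had log2 fold changes under 2 SE.

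**Figure D3:**
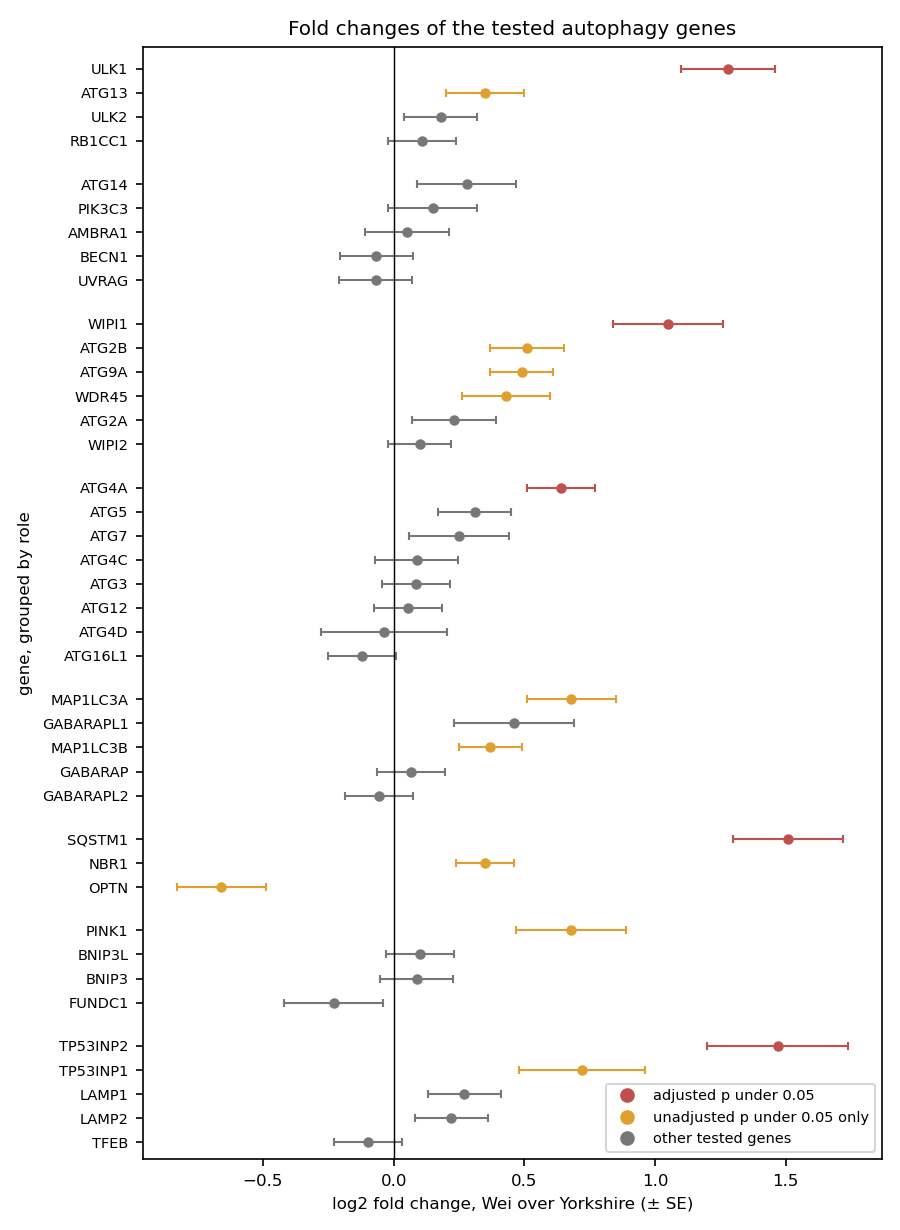
Log2 fold change of Wei over Yorkshire (horizontal axis, bars are ± SE) for the 40 tested genes, grouped by role. The 5 genes with an adjusted p under 0.05 in edgeR lie between 0.64 and 1.51, and OPTN at -0.66 is the farthest below 0.

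In the ATG8 family the LC3 genes lay higher in Wei and the GABARAP genes overlapped. With edgeR and limma voom 0 of 5 were called and with DESeq2 1, where these called 5.08%, 4.88% and 9.78% of all genes. In edgeR 2 had an unadjusted p under 0.05, against 23.3% of all genes. MAP1LC3A (ENSSSCG00000007281, chromosome 17, 43155401 to 43157544) stood at 86.9, 64.9 and 58.0 CPM in Wei and 47.3, 44.1 and 39.7 in Yorkshire. No Wei value reached down to Yorkshire, and the log2 fold change was 0.68 ± 0.17 (edgeR adjusted p = 0.0585). DESeq2 called it, at an adjusted p of 0.0108. MAP1LC3B stood at 168, 179 and 156 CPM in Wei and 137, 134 and 118 in Yorkshire, which differ by 0.37 ± 0.12 (log2) at an edgeR adjusted p of 0.121.

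GABARAPL1 was above all Yorkshire libraries in Wei replicates 1 and 2 and below 2 of them in Wei replicate 3. Its values were 15.1, 11.6 and 8.03 CPM in Wei replicates 1 to 3 and 8.56, 7.85 and 8.78 in Yorkshire, with a log2 fold change of 0.46 ± 0.23. GABARAP (0.066 ± 0.13) and GABARAPL2 (-0.057 ± 0.13), which had higher FPKM than GABARAPL1, were within 1 SE of 0 on the log2 scale. Whether the LC3 and GABARAP branches differ from each other was not tested.

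The cargo receptors did not share a direction: SQSTM1 was called higher, and OPTN was lower in every Wei library without passing the threshold. SQSTM1, the receptor that binds ubiquitin chains and ATG8 proteins (ENSSSCG00000014016, chromosome 2, 80318834 to 80329991), stood at 1097, 747 and 675 CPM in Wei replicates 1 to 3 and 326, 308 and 249 in Yorkshire. All Wei values were above all Yorkshire values, with Wei replicate 1 the highest. The log2 fold change was 1.51 ± 0.21 (edgeR adjusted p = 0.0119). SQSTM1 passed with each library left out except Yorkshire replicate 2, where the edgeR adjusted p was 0.0619.

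OPTN, a receptor for ubiquitin-tagged mitochondria and bacteria (ENSSSCG00000023247, chromosome 10, 77690723 to 77740523), had 325, 284 and 240.0 CPM in Wei and 389.7, 525 and 428 in Yorkshire, and all Wei values were below all Yorkshire values. Its log2 fold change was -0.66 ± 0.17, with an adjusted p of 0.0614 in edgeR and 0.0107 in DESeq2. NBR1, a receptor that works alongside SQSTM1, had 187, 199.8 and 191 CPM in Wei and 150.3, 155 and 149 in Yorkshire. The libraries of each breed lay close together and the breeds did not overlap, but the log2 fold change was small, 0.35 ± 0.11 (edgeR adjusted p = 0.108).

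Of the 4 mitophagy genes tested, PINK1 was the one with an unadjusted p under 0.05 in edgeR, against 23.3% of all genes. In edgeR and limma voom 0 of 4 were called and in DESeq2 1, PINK1. These called 5.08%, 4.88% and 9.78% of all genes. PINK1, the kinase that marks damaged mitochondria, stood at 438, 298 and 493 CPM in Wei and 299, 247 and 219 in Yorkshire. Wei replicate 2 was level with Yorkshire replicate 1, so the groups overlapped narrowly, and the log2 fold change was 0.68 ± 0.21 (edgeR adjusted p = 0.0961). Of the 6 edgeR fits with a library left out, 1 called it, the fit without Wei replicate 2 (adjusted p = 0.0458). In the others the adjusted p ran up to 0.243. Its locus overlaps DDOST, which had 10.9% as many counts and a log2 fold change of 0.066 ± 0.13.

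BNIP3, a hypoxia-induced receptor on the outer mitochondrial membrane, had 213, 232 and 261 CPM in Wei and 194, 235 and 235 in Yorkshire. The groups overlapped, with a log2 fold change of 0.088 ± 0.14, and its relative BNIP3L had 0.10 ± 0.13. FUNDC1, another receptor of that membrane, stood at 41.8, 43.9 and 42.1 CPM in Wei and 35.8, 54.1 and 59.6 in Yorkshire. Its Yorkshire values lay on both sides of Wei, and its log2 fold change was -0.23 ± 0.19.

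Among the lysosomal proteins and regulators, TP53INP2, a nuclear protein that moves to the cytoplasm on starvation and binds ATG8 proteins, was called (ENSSSCG00000022099, chromosome 17, 43299840 to 43308847). It stood at 98.9, 125 and 60.7 CPM in Wei and 36.7, 39.4 and 26.4 in Yorkshire. Even the low Wei replicate 3 was above all Yorkshire libraries. The log2 fold change was 1.47 ± 0.27 (edgeR adjusted p = 0.0263). TP53INP2 passed without Wei replicate 2 or Wei replicate 3 and missed with each of the other 4 libraries left out, at an adjusted p of up to 0.0858.

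TP53INP1, its paralog and a p53 target, stood at 33.8, 42.8 and 38.6 CPM in Wei and 19.9, 17.1 and 32.9 in Yorkshire. Yorkshire replicate 3 lay just under Wei, and the log2 fold change of 0.72 ± 0.24 had an adjusted p of 0.119 in edgeR and 0.0465 in DESeq2. Of the 6 edgeR fits with a library left out, 1 called it, the fit without Yorkshire replicate 3. There the log2 fold change was 1.05 ± 0.17, with an adjusted p of 0.0395. In the others the log2 fold change went down to 0.54 and the adjusted p up to 0.288. TFEB, the transcription factor of lysosome and autophagy genes, had 35.3, 45.4 and 39.4 CPM in Wei and 41.9, 41.4 and 45.0 in Yorkshire. Those values overlap, and its log2 fold change was -0.097 ± 0.13. LAMP1 (0.27 ± 0.14) and LAMP2 (0.22 ± 0.14), the main proteins of the lysosomal membrane, had log2 fold changes under 2 SE.

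Ratios of raw counts within a library show how pairs of genes differed relative to each other without any scaling between libraries. They hold gene length as well, so they are not relative levels of the transcripts. The 12 pairs were chosen after values were seen, and no test was made: 3 against 3 cannot give an exact p below 0.1. ULK1 had 2.49, 3.79 and 2.56 times the counts of ULK2 in Wei replicates 1 to 3 and 1.26, 1.33 and 1.58 times in Yorkshire. WIPI1 had 2.01, 1.90 and 1.39 times the counts of WIPI2 in Wei and 0.928, 1.07 and 0.748 times in Yorkshire. In both pairs every Wei ratio was above every Yorkshire ratio.

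SQSTM1 had 3.38, 2.63 and 2.81 times the counts of OPTN in Wei, and 0.837, 0.586 and 0.582 times in Yorkshire. These were the farthest apart of the 12 pairs. The mean log2 ratio was 1.55 ± 0.19 (SD, n = 3) in Wei and -0.60 ± 0.30 in Yorkshire. SQSTM1 against NBR1 gave 5.86, 3.74 and 3.54 in Wei and 2.17, 1.99 and 1.67 in Yorkshire.

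MAP1LC3A against MAP1LC3B gave 0.517, 0.363 and 0.372 in Wei and 0.345, 0.328 and 0.335 in Yorkshire, a separation that is narrow apart from Wei replicate 1. BNIP3 against BNIP3L was level, with a mean log2 ratio of 2.94 ± 0.26 in Wei and 2.95 ± 0.094 in Yorkshire. LAMP2 against LAMP1 was level as well, at -0.18 ± 0.25 and -0.13 ± 0.34.

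**Figure D4:**
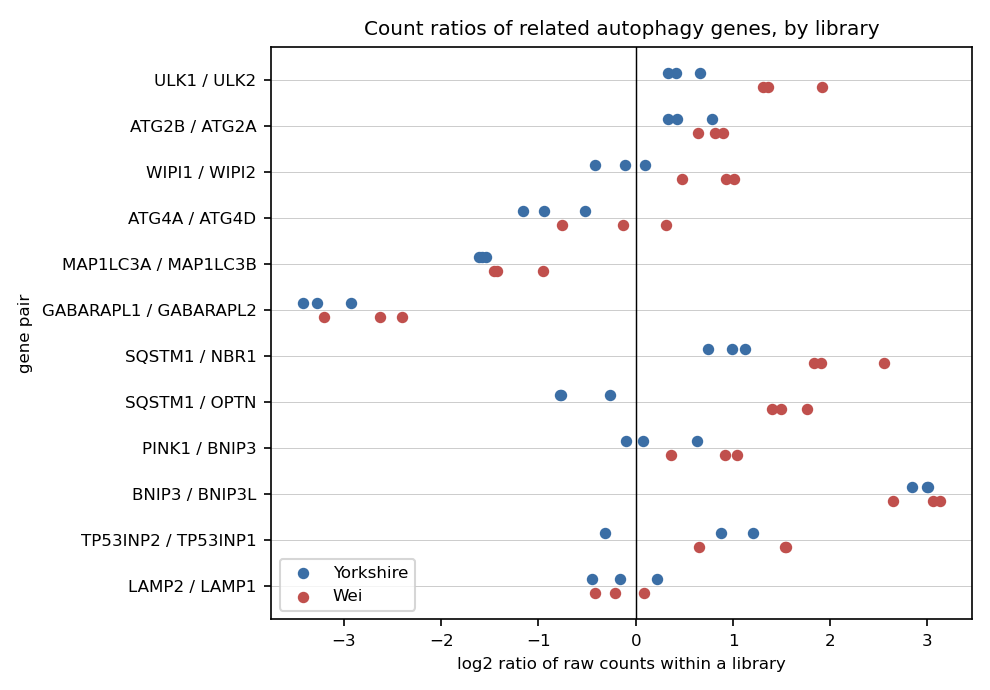
Log2 ratio of the raw counts of gene pairs within each library (horizontal axis), with Yorkshire and Wei libraries as points of different colour, 3 each per pair. The breeds separate for ULK1 over ULK2, WIPI1 over WIPI2 and SQSTM1 over NBR1 and OPTN, narrowly for MAP1LC3A over MAP1LC3B, and overlap in the other pairs.

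The deposited FPKM values, which are counts divided by gene length and library size, put the cargo receptor SQSTM1 first of the 41 genes with a row. Its mean FPKM was 402 ± 151 (SD, n = 3) in Wei and 139.6 ± 11.8 in Yorkshire. OPTN followed with 141 ± 35.4 in Wei and 225 ± 40.7 in Yorkshire, so in FPKM the receptor with the higher mean was SQSTM1 in Wei and OPTN in Yorkshire. BNIP3 (136 ± 3.41 in Wei, 131 ± 21.2 in Yorkshire), PINK1 (134 ± 33.9 and 84.4 ± 8.14), GABARAP (97.9 ± 10.4 and 95.0 ± 8.0002) and MAP1LC3B (104 ± 14.4 and 81.2 ± 2.98) came next in order of the mean over all libraries. ULK1 stood at 42.3 ± 10.5 FPKM in Wei and 17.6 ± 0.961 in Yorkshire, and ULK2 at 14.4 ± 1.58 and 12.8 ± 1.18. In the lipid kinase complex, BECN1 stood at 21.7 ± 3.44 FPKM in Wei and 22.9 ± 3.71 in Yorkshire, and PIK3C3 at 5.31 ± 0.961 and 4.86 ± 0.657. ATG10, an enzyme of the ATG12 branch, was lowest, at 0.687 ± 0.234 and 0.715 ± 0.258.

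**Figure D5:**
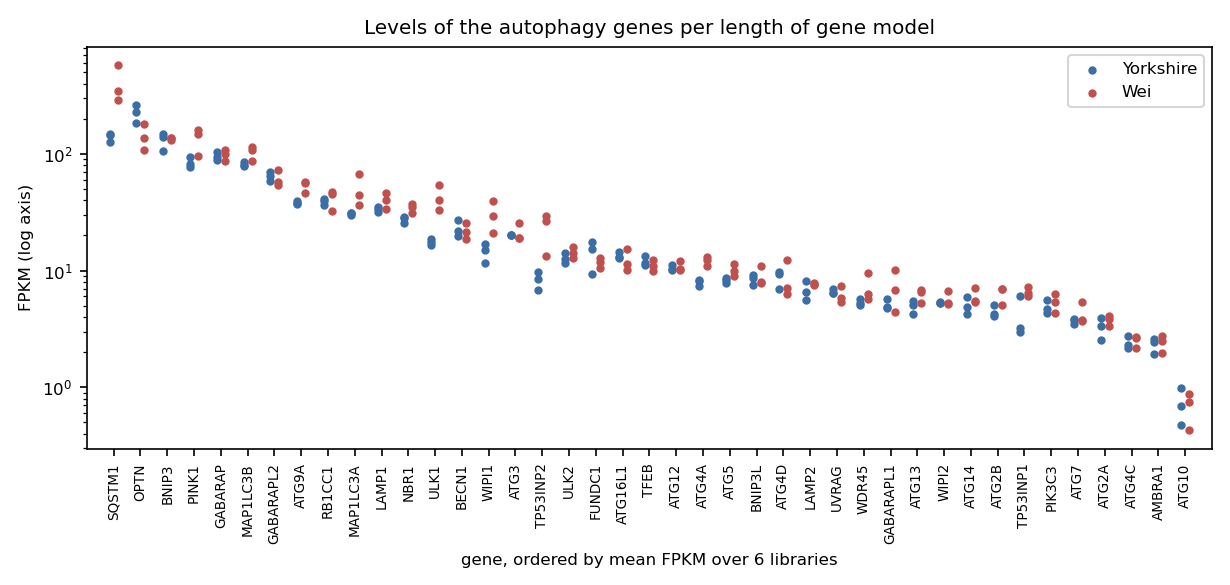
Deposited FPKM (log axis) of the 41 genes with a row, ordered by the mean over 6 libraries, with each library as a point coloured by breed. Means over the 6 libraries run from 271 for SQSTM1 to 0.701 for ATG10.

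The libraries of a breed were not alike across the 15 genes with an unadjusted p under 0.05. Wei replicate 2 had the highest Wei value in 9 of the 15 and Wei replicate 1 in 5, while Wei replicate 3 had the lowest in 10. Within Yorkshire, replicate 3 had the lowest value in 10. Wei replicate 1 led for SQSTM1, WIPI1, WDR45, MAP1LC3A and OPTN, and Wei replicate 2 for genes that included ULK1, TP53INP2, ATG4A, ATG9A and ATG2B. The fibroblast and muscle fibre marker sums were both lowest in Wei replicate 1, at 465 and 81818 CPM. That library also had the lowest share of ACTA1 counts, 3.77%. Wei replicate 2 was the library with 6901 counts on the Y chromosome. The part of these traits in the differences was not tested.

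The 8 further lists of pathway genes held 125 tested genes, of which 4 were called higher and 1 lower, against 2.73% and 2.35% of all genes. Their median log2 fold change was 0.076. In the list of further receptors and mitophagy genes, 2 of 19 were higher. FAM134B, a receptor for autophagy of the endoplasmic reticulum, stood at 92.4, 114 and 66.3 CPM in Wei and 25.3, 32.4 and 20.7 in Yorkshire, with no overlap. Its log2 fold change of 1.80 ± 0.23 (edgeR adjusted p = 0.0104) passed whichever library was left out. CALCOCO1, another receptor of the endoplasmic reticulum, had 112, 119.8 and 101 CPM in Wei and 80.6, 77.4 and 76.4 in Yorkshire, which differ by 0.51 ± 0.12 (log2) at an edgeR adjusted p of 0.049. It missed the threshold with each library left out.

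Upstream kinases and transcription factors had 2 of 23 genes higher with edgeR, where 2.73% of all genes were called higher. With DESeq2 3 were higher, PRKAG2 being the third, where it called 5.4% of all genes higher. FNIP1, the folliculin partner that links AMPK and mTORC1 signalling at the lysosome, stood at 74.0, 95.7 and 102 CPM in Wei and 43.5, 40.7 and 39.3 in Yorkshire. The groups were far apart, and the log2 fold change was 1.14 ± 0.15 (edgeR adjusted p = 0.0104). NFE2L2, the antioxidant transcription factor of which SQSTM1 is a known target and activator, stood at 161, 137 and 139 CPM in Wei and 78.9, 72.4 and 77.9 in Yorkshire, which differ by 0.93 ± 0.12 (log2) at an edgeR adjusted p of 0.0108. Both missed the threshold without Yorkshire replicate 2, at 0.0566 and 0.059. FOXO3, an activator of autophagy genes in muscle named here outside the rule for naming, spread from 29.3 to 59.0 CPM in Wei and 21.6 to 35.7 in Yorkshire, with an overlap and a log2 fold change of 0.51 ± 0.29.

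Of 32 tested hydrolase and membrane genes of the lysosome edgeR called 0 higher and 1 lower, where it called 5.08% of all genes either way. At an unadjusted p under 0.05 there were 6 higher and 4 lower, where 23.3% of all genes were so either way. DESeq2 called 3 higher and 3 lower, with 9.78% of all genes called either way, and limma voom 0 and 1. Their median log2 fold change was 0.022. The gene lower was CTSH, a cysteine protease also abundant in macrophages, at 5.68, 8.52 and 7.39 CPM in Wei and 19.1, 12.9 and 17.3 in Yorkshire. The log2 fold change came to -1.19 ± 0.21 (edgeR adjusted p = 0.0246), and it missed the threshold with each library left out except Wei replicate 2. The macrophage markers summed to 22.2 to 32.9 CPM in Wei and 19.2 to 92.7 in Yorkshire, and their part in this difference was not tested.

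PSAP, the precursor of the lysosomal sphingolipid activators, stood at 229, 337 and 355 CPM in Wei and 181, 179 and 198 in Yorkshire. Its log2 fold change of 0.72 ± 0.18 just missed the threshold (edgeR adjusted p = 0.0549); it was singled out after its values were seen. The vacuolar ATPase, the pump that acidifies the lysosome, had 0 of 14 subunits called in edgeR, where 5.08% of all genes were called. There were 2 at an unadjusted p under 0.05, against 23.3% of all genes. DESeq2, which called 9.78% of all genes, and limma voom called 0 subunits. ATP6V1E1 had a log2 fold change of -0.088 ± 0.13.

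No gene was called with edgeR among 12 genes of autophagosome and lysosome fusion, 12 further machinery genes, 8 of chaperone-assisted autophagy and 5 of the BCL2 family. In the same order, 3, 0, 3 and 0 had an unadjusted p under 0.05. Over all genes edgeR called 5.08%, and 23.3% had an unadjusted p under 0.05, either way. DESeq2 called 1 gene of these lists, FLNC, where it called 9.78% of all genes, and limma voom called 0. The gene with the highest average log2 CPM in each had log2 fold changes of 0.42 ± 0.15 (RAB7A, a GTPase of late endosomes), 0.036 ± 0.13 (SH3GLB1, a membrane-bending protein), 0.78 ± 0.28 (FLNC, the muscle filamin that this route turns over) and 0.21 ± 0.17 (MCL1, a survival protein).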

How the data were processed

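Muscle RNA was sequenced in 6 libraries, 3 per breed. Raw counts and FPKM are both given for each library in the table the authors deposited (25322 Ensembl gene rows, per the file headers). Per the submitters' processing notes, CASAVA 1.7, TopHat2 2.0.9, edgeR and Sscrofa10.2 were used. The sources used here do not give the counter, annotation release or strand setting, so overlapping or near-identical genes cannot be separated. Coordinates are as in the table.

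Low genes were removed by filterByExpr (minimum count 10). TMM scaling and glmQLFit with breed as the only term came from edgeR 4.0.16 (R 4.3.3), and glmQLFTest p-values were adjusted over all 13209 genes, threshold 0.05. Fold changes are Wei over Yorkshire. Dividing the absolute log2 fold change (no prior count) by the root of F gave its SE. FPKM served only for levels between genes. No sequences were used here. The test was checked on simulated data. Alternatives were other scalings and filters, DESeq2 1.42.0, limma 3.58.1 (voom), a replicate block, other thresholds, summed rows of a symbol, and leaving out each library. Fits without mitochondrial genes and ACTA1, and matching by Ensembl ID, were added after the data were seen.

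Every list member is accounted for; those with an unadjusted p under 0.05 or called under another setting are given by library. Of each further list, up to 4 called genes are named, or else the 1 with the highest expression. For list genes, rows with no symbol were named by ID where the gene name table had one (1774 rows). The members and lists were chosen with earlier results of these data known. Libraries differed by more than sampling noise in every pair (lowest chi-square per degree of freedom 26.3).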

Additional observations from a re-analysis of the deposited data

How the results depend on the processing

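The count of called genes was 5, all higher in Wei. Leaving mitochondrial genes and ACTA1 out, RLE scaling, no count filter, limma voom and a 1 CPM filter gave 6 each, all holding the same 5, and library size alone gave 4 of them. Over all genes these 6 settings called 3.53% to 5.67%. DESeq2 called 11 (10 higher, 1 lower) and 12 in the further lists, against 5 with edgeR; the cause was not tested. None of the 40 had an edgeR adjusted p under 0.01, the lowest being 0.0119 for SQSTM1. Under 0.10 there were 10 (9 higher, 1 lower), where 11.1% of all genes were so. A looser threshold can only add genes. Leaving out 1 library left 0 to 4 genes, all higher and 0 lower, and 1 to 5 in the further lists, with fewer samples in each fit. The median log2 fold change was 0.19 with library size alone and 0.17 to 0.22 with a library left out. The replicate block gave 4 of the 5 genes, all but ATG4A, and a median of 0.22. Libraries with the same replicate number had correlations of their deviations from the breed means of 0.14, -0.0066 and 0.022, too low to treat the numbers as pairing. Of the 40 tested genes 4 changed sign with a library left out: GABARAP, ATG4D, BECN1 and AMBRA1, all within 0.067 of 0 on the log2 scale with all libraries. So did SH3GLB1 and ATP6V1E1, of the 12 genes named from the further lists. No other setting changed the sign of these genes. Depth limits ATG10, at 4 to 15 counts.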

Other observations

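Of the symbols with no match, 2 had a row by Ensembl ID through the table of gene names. PIK3R4, a subunit of the lipid kinase complex, stood at 12.6, 11.2 and 9.15 CPM in Wei replicates 1 to 3 and 10.04, 11.1 and 12.8 in Yorkshire. These values overlap, and its log2 fold change was -0.039 ± 0.18. PARK2, the ubiquitin ligase that acts with PINK1, had 0, 0 and 1 counts in Wei and 3, 7 and 8 in Yorkshire. It did not reach the count filter, and no fold is given.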
